A study of Mus musculus with 23 samples.

Results

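Libraries made from 500 sorted mouse T cells were compared with libraries made from 0.5 ng of diluted RNA. These were 3 libraries of each kind out of 23 in the series, grouped by their input labels. The T cells were spleen T cells positive for CD3, the surface complex that marks T cells, and their labels give strain C57 and an age of 6 to 18 weeks. The diluted RNA carries the same strain and age labels, but the series text gives mouse spleen as its source whereas the sample labels name RAW 264.7, a mouse macrophage line. No treatment and no genetic change is given for either group. Libraries from 10000 T cells and 5 ng RNA, and from 1000 T cells and 1 ng RNA, with 3 libraries in each group and the same labels apart from the input, served as comparisons at other inputs. Values of some antibody genes and of Y chromosome genes are also given for the 3 libraries of 100 T cells, whose labels give the same age. Every library was made from cDNA primed with oligo-dT, which copies polyadenylated RNA, and then cut and tagged by the Tn5 transposase. The labels do not say whether the 3 libraries of a group came from separate mice, sorts or dilutions, so p-values may measure technical spread alone.

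T cells recognise antigen with a receptor of alpha and beta chains that signals through the CD3 proteins and the kinases Lck and Zap70. B cells and the plasma cells that derive from them make antibodies, whose class is set by the constant region of the heavy chain. IgA is the antibody class secreted at mucosal surfaces. The joining chain, encoded by Jchain, links IgA molecules but is not particular to IgA. A cell of the B lineage normally expresses a single rearranged heavy chain and a single light chain, so cells of one clone use the same variable genes.

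The deposited values were whole-number counts for 22488 gene symbols. Totals ran from 2222347 to 2575103 counts in the 500-cell libraries and from 3702988 to 4230190 in the 0.5 ng libraries. Levels are given as CPM, a gene's count relative to the library's total count. Replicates correlated across genes with Pearson's r of log2(CPM + 1) from 0.914 to 0.920 in T cells and at 0.970 in RNA, and their counts differed by more than sampling noise. With edgeR's quasi-likelihood test and Benjamini-Hochberg adjustment, 13001 genes passed the filter on low counts and 4823 of them (37.1%) passed the threshold of 0.05 on the adjusted p, the rule behind every gene called higher or lower here. Of these, 2473 genes (19.0% of those tested) were higher in 500 T cells and 2350 (18.1%) were lower. Log2 fold changes are given as T cells over RNA, so that a positive value is a higher level in T cells.

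The genes of the T cell receptor complex were all higher in the 500-cell libraries. Trac, the constant region of the alpha chain, lay at 710.2, 724 and 767 CPM in the 3 T cell libraries and at 189, 179.7 and 155 CPM in the 3 RNA libraries. Cd3e, the epsilon chain of CD3, lay at 389.9, 452 and 411 CPM against 113, 108 and 81.8 CPM. Neither gene's groups overlapped, and the spread within a group was small beside the gap. The log2 fold change was 2.06 (SE 0.0932, adjusted p = 3.91e-14) for Trac and 2.03 (SE 0.124, adjusted p = 8.35e-12) for Cd3e (n = 3 each). All 7 members of the list (Cd3d, Cd3e, Cd3g, Cd247, Trac, Trbc1 and Trbc2) were called higher, with log2 fold changes from 1.89 to 2.23 and a median of 2.1, against a median of 0.06 over all genes tested. Together they took 0.339 ± 0.00760% of all counts in 500 T cells and 0.0783 ± 0.00460% in 0.5 ng RNA (SD, n = 3 each). The exact permutation test of these shares gave p = 0.1, two-sided, which is the smallest value that 3 libraries against 3 allow. In bulk samples, fewer cells of a type and less RNA per cell cannot be told apart.

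Genes that carry the signal inward from the receptor followed the same direction. All 12 members of the list were called higher, with a median log2 fold change of 1.60. Lck, the kinase that starts the signal, lay at 987, 1026 and 979 CPM in T cells against 265, 291 and 266 CPM in RNA, with groups that did not overlap and a log2 fold change of 1.85 (SE 0.0778). The adaptor Lat had the highest change of the list, 2.16 (SE 0.101), with 546 ± 10.2 CPM against 121 ± 10.7 CPM. Zap70, the kinase recruited to the receptor, and Prkcq, a protein kinase C downstream of it, had changes of 2.12 (SE 0.141) and 1.94 (SE 0.113). The phosphatase Ptpn22 had the lowest change, 0.75 (SE 0.126), and the adaptor Lcp2 the next lowest, 0.94 (SE 0.115).

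Surface molecules of T cells were also higher throughout, in 9 of 9 genes with a median of 1.43. Cd6, an adhesion receptor, lay at 523, 484 and 501 CPM in T cells against 74.5, 87.2 and 105 CPM in RNA, and its groups did not overlap (log2 fold change 2.49, SE 0.12, adjusted p = 1.25e-13). Cd40lg, through which helper T cells activate B cells, had the largest change of the list at 3.41 (SE 0.319), on low levels of 68.1 ± 14.03 CPM against 6.34 ± 1.55 CPM. Ctla4, an inhibitory receptor of activated and regulatory T cells, had the smallest at 0.86 (SE 0.281). The costimulatory receptors Cd27 and Cd28 lay at 2.01 (SE 0.132) and 1.42 (SE 0.127).

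Both major T cell lineages were represented. Cd4, the co-receptor of helper T cells, lay at 489, 477 and 433 CPM in T cells against 116, 141 and 151 CPM in RNA. Cd8a, the co-receptor of cytotoxic T cells, lay at 347, 343 and 328 CPM against 125, 111 and 135 CPM. The groups of both genes were separate, with log2 fold changes of 1.77 (SE 0.112) and 1.45 (SE 0.115). Gata3 and Foxp3, transcription factors of type 2 helper and of regulatory T cells, were called higher as well (2.08, SE 0.242, and 1.65, SE 0.271). Zbtb7b and Runx3, which direct the CD4 and CD8 fates, and Tbx21, the factor of type 1 helper cells, did not pass the threshold (0.37, SE 0.176, -0.10, SE 0.145, and 0.47, SE 0.276). Of the 9 genes of this list, 5 of 8 tested were called higher and 0 lower.

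Transcription factors of the T lineage rose in 6 of 6 cases, with a median log2 fold change of 1.85. Tcf7, which sets T cell fate and keeps cells naive or memory-like, lay at 1583, 1560.3 and 1644 CPM in T cells against 330.4, 402 and 359 CPM in RNA. Its groups were far apart (log2 fold change 2.12, SE 0.0754, adjusted p = 4.79e-16). Bcl11b, Lef1 and Tox had changes of 2.31 (SE 0.127), 2.21 (SE 0.104) and 1.58 (SE 0.234), and Satb1, a chromatin organiser, of 1.39 (SE 0.078). Ets1, which B cells also express, had the smallest at 0.35 (SE 0.0622), with 1225 ± 36.5 against 952 ± 34.1 CPM. With the trend of the fold changes on gene length removed, its change was -0.014.

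Genes of naive T cell homing and survival were called higher in 7 of 8 cases, with a median of 1.25. Ccr7, which guides naive T cells into lymphoid tissue, lay at 553 ± 13.1 CPM against 220.5 ± 10.1 CPM (log2 fold change 1.32, SE 0.0896). Il7r, the receptor for the survival factor IL-7, had a change of 1.66 (SE 0.105), and Igfbp4 and Dapl1, which mark naive T cells, of 2.06 (SE 0.114) and 1.97 (SE 0.298). The GIMAP GTPases, a family that supports lymphocyte survival, split: Gimap3, Gimap4, Gimap5 and Gimap6 were called higher, by 0.61 to 1.23, and Gimap1, Gimap7, Gimap8 and Gimap9 lay between -0.0065 and 0.13 without passing the threshold.

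**Figure D1:**
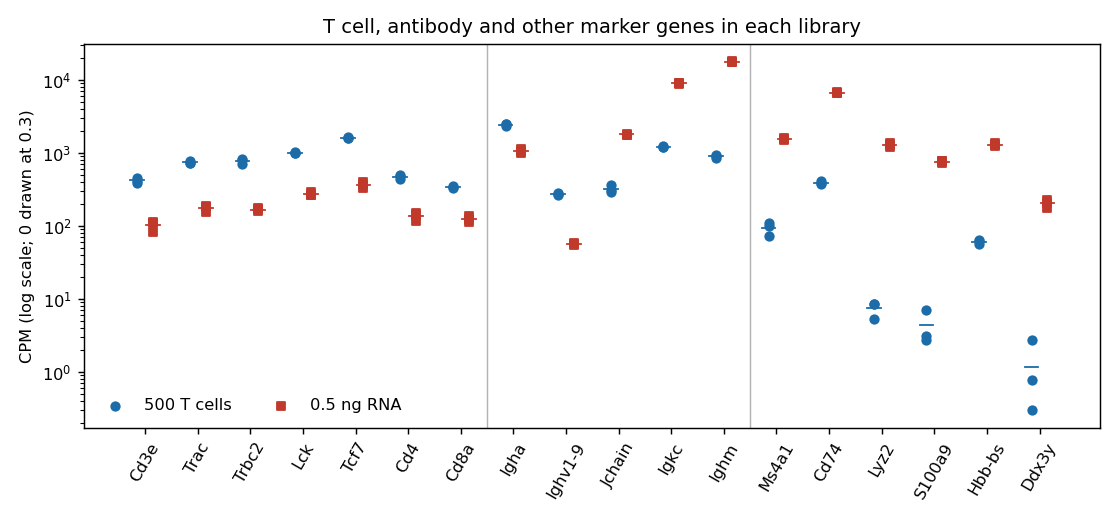
CPM on a log axis for 18 genes in each of the 6 libraries, with circles for 500 T cells, squares for 0.5 ng RNA and short lines for group means. The 7 T cell genes on the left and, among the antibody genes in the middle, Igha and Ighv1-9 lay higher in all 3 T cell libraries, whereas Jchain, Igkc, Ighm and the genes on the right lay lower in all 3.

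Genes of gamma delta T cells and of cytotoxic cells did not move as one. Of the 7 gamma delta genes, Trdc, Tcrg-C1 and Tcrg-C4, constant regions of the gamma and delta chains, were called higher (1.67, SE 0.354, 3.83, SE 0.73, and 1.99, SE 0.449), all at or under 36.3 CPM. Blk, a kinase that B cells express as well, was called lower (-3.32, SE 0.18). Of 12 cytotoxic T and NK cell genes, 2 (16.7%) were called higher and 5 (41.7%) lower, with a median of -1.10. These shares were 42.9% and 14.3% for the 7 gamma delta genes, and 19.0% and 18.1% over all genes tested. Nkg7, a granule protein, and Klrd1, the receptor chain CD94, were higher (0.63, SE 0.163, and 1.38, SE 0.196). Gzma, a granule protease, Ncr1 and Klrb1c, receptors of NK cells, and Ccl5 and Klrk1 were lower, with Gzma at 9.34 ± 6.35 CPM against 65.7 ± 15.1 CPM and Ncr1 at 1.94 ± 1.82 CPM against 21.96 ± 4.26 CPM.

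The pooled set of 7 T cell lists left out the gamma delta list (3 higher, 1 lower) and the cytotoxic T and NK cell list (2 higher, 5 lower). Over these 7 lists, 50 of 58 genes tested were called higher and 0 lower, against 19.0% and 18.1% of all genes, with a median log2 fold change of 1.44. The same 59 genes had a median of 1.59 between 10000 T cells and 5 ng RNA, with 54 called higher and 3 lower, and 1.52 between 1000 T cells and 1 ng RNA, with 53 higher and 1 lower. Over all genes, 4134 of 14425 tested were called higher and 3939 lower in the first of these comparisons. In the second, 2541 of 12656 were called higher and 2525 lower. How the difference between T cells and RNA changed with input was tested gene by gene as an interaction in edgeR. Against 10000 cells and 5 ng, 302 of 15493 genes (1.95%) were called, 181 (1.17%) with a higher and 121 (0.781%) with a lower T cell level relative to RNA at 500 cells. This split turned to 211 higher and 234 lower with no filter on low counts, and to 189 and 253, 182 and 235, and 206 and 256 without replicate 1, 2 or 3 of the 500-cell group; without immunoglobulin genes it was 152 and 150. Among the 59 T cell genes this test called 0 higher and 2 lower, among them Ets1 at -0.46 (SE 0.0716). Against 1000 cells and 1 ng it called 182 of 15228 genes (1.2%), 81 (0.532%) higher and 101 (0.663%) lower. With DESeq2's size factors in edgeR this split was 89 higher and 73 lower. The T cell genes among them were Tbx21, higher at 1.49 (SE 0.386), and Ets1, lower at -0.36 (SE 0.0844).

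Removing all 260 immunoglobulin genes from the table before the library sizes were computed moved no T cell gene's log2 fold change by more than 0.0061, and 50 of 58 were again called higher. Such a removal can reach other genes only through the library sizes, the scaling and the shared fit. Whether the T cell genes are linked to the antibody genes was therefore not tested. Under every setting tried, including each library left out in turn, 49 to 51 of the 58 were called higher. With the trend on gene length removed 1 was called lower, and 0 under every other setting.

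IgA was the exception among the antibody classes. Igha, the IgA heavy chain constant region, lay at 2471, 2429 and 2324 CPM in the 3 libraries of 500 T cells and at 1138, 1055 and 978 CPM in the 3 of 0.5 ng RNA. The groups did not overlap, and the log2 fold change was 1.18 (SE 0.0595, adjusted p = 3.01e-13). Between 10000 T cells and 5 ng RNA the same gene had a log2 fold change of -8.58 (SE 0.0952), on 3.39 ± 1.28 CPM against 1207 ± 8.09 CPM, and between 1000 T cells and 1 ng RNA of -8.53 (SE 0.188), on 3.22 ± 2.89 CPM in T cells. The interaction was 9.71 (SE 0.126, adjusted p = 3.57e-34) against 10000 cells and 9.69 (SE 0.187, adjusted p = 6.17e-34) against 1000. Per kilobase of exon, the 500-cell libraries held 903 CPM of Igha, 785 CPM of Trac and 102 CPM of Cd3e.

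The other heavy chain classes, apart from the scarce IgE, were called lower in T cells. Ighm, the IgM constant region, lay at 844, 928 and 901 CPM in T cells against 17378, 17202 and 17682 CPM in RNA, without overlap (log2 fold change -4.30, SE 0.0396). Ighg2c and Ighg2b, constant regions of IgG subclasses, lay at 9.49 ± 0.583 and 8.92 ± 4.82 CPM in T cells against 2188 ± 56.97 and 1752 ± 63.5 CPM in RNA (-7.85, SE 0.0962, and -7.64, SE 0.154). Ighd, Ighg1 and Ighg3 were called lower too, and Ighe, near the limit of detection, was not called. Of the 12 constant regions on the list, 1 (8.33%) was called higher and 10 (83.3%) lower, with a median of -3.99, against 19.0% and 18.1% of all genes. Per kilobase of exon, Igha made up 61.6 ± 1.98% of the heavy chain constant signal in 500 T cells and 3.07 ± 0.241% in 0.5 ng RNA, and 0.253 ± 0.0984% in 10000 T cells (SD, n = 3 each). Ighm made up 32.2 ± 1.25%, 71.4 ± 0.645% and 88.1 ± 1.19% in the same groups. At 500 cells, Ighm stood at 472 CPM per kilobase in T cells, against 444 ± 32.4 at 10000 cells. In the 3 libraries of 100 T cells, Igha stood at 1.95, 5.27 and 177 CPM per kilobase and Ighm at 366, 396 and 4314. In the third of these, Igha made up 2.89% and Ighm 70.5% of the heavy chain constant signal, near their shares in 0.5 ng RNA. That library also held 692 counts of Y-linked genes, against 0 and 8 in the first and second. Whether it held RNA of other material was not tested.

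**Figure D2:**
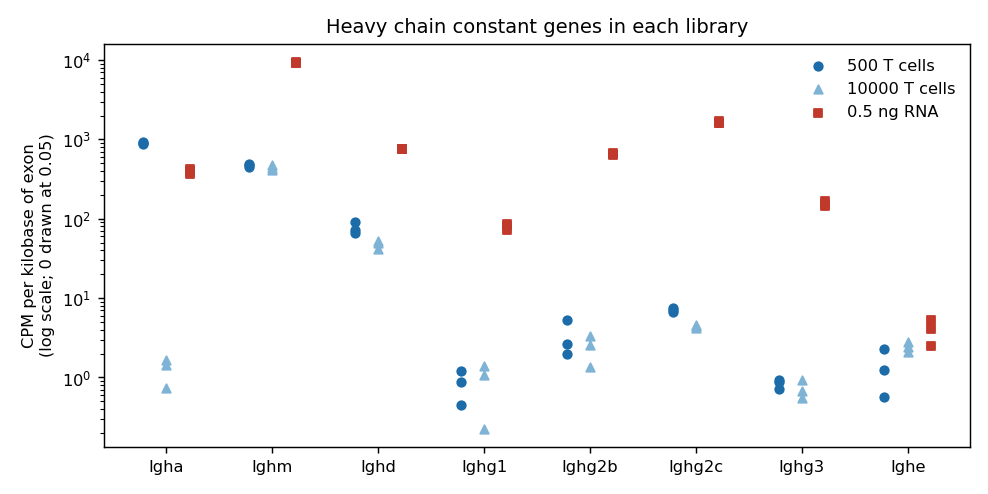
CPM per kilobase of exon, on a log axis, for 8 heavy chain constant genes in each library of 500 T cells (circles), 10000 T cells (triangles) and 0.5 ng RNA (squares). Igha averaged 903 in 500 T cells, 396 in RNA and 1.27 in 10000 T cells, while the IgG genes lay under 10 in both T cell groups.

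The IgA signal came with a narrow set of variable genes. Among 113 heavy chain variable genes, Ighv1-9 took between 77.0% and 81.7% of the family's counts in each 500-cell library, and between 3.79% and 4.12% in each 0.5 ng library. It lay at 269, 263 and 277 CPM in T cells against 55.7, 57.4 and 54.01 CPM in RNA, with no overlap (log2 fold change 2.26, SE 0.132, adjusted p = 3.69e-12). It was the only heavy chain variable gene called higher, and 54 of 59 tested were called lower. A variable gene near 0 in T cells could pass the filter only through its RNA level, so the count of lower genes is a description. The interaction was 9.21 (SE 0.361) against 10000 cells, where the gene lay at 0.588 ± 1.02 CPM in T cells, and 8.68 (SE 0.37) against 1000 cells. Its germline sequence is printed because counts of variable genes rest on small sequence differences. It is shown 5′ to 3′ from the GENCODE M21 transcripts on GRCm38, where the printed variable segment lies in a single exon at chr12:114583569-114583862 on the minus strand. Beside it stands the closest gene of the same length among 52 of the table's heavy chain variable genes, Ighv1-77, at chr12:115861867-115862160 on the minus strand. Capitals mark the 30 of 294 bases at which these genes differ, an identity of 89.8%. The cells' own rearranged sequences are not in a count table, and GRCm38 is not the build named by the submitters.
Ighv1-9: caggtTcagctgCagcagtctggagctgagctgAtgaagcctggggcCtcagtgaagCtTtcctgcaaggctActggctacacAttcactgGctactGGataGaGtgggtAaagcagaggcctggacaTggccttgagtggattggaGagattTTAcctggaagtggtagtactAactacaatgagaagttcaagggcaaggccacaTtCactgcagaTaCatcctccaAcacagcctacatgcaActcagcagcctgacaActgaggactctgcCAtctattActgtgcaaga
Ighv1-77: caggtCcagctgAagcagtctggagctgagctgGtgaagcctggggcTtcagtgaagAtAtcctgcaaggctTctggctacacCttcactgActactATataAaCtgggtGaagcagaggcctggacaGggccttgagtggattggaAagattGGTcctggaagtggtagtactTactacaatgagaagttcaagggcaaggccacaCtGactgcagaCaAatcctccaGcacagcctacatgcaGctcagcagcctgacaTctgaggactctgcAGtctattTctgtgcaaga

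A light chain gene behaved in the same way. Among 100 kappa variable genes, 1 gene took between 74.4% and 75.4% of the family's counts in each 500-cell library and between 3.23% and 3.74% in each 0.5 ng library. It lay at 289, 292 and 269 CPM in T cells against 103, 94.8 and 90.2 CPM in RNA, without overlap, and its log2 fold change was 1.55 (SE 0.122, adjusted p = 7.77e-10). Of the 67 kappa variable genes tested it was the only one called higher, and 65 were called lower. Here too, a gene near 0 in T cells could pass the filter only through its RNA level. Between 10000 T cells and 5 ng RNA the leading gene lay at 1.22 ± 0.152 CPM against 95.1 ± 7.37 CPM, and its interaction was 7.86 (SE 0.248). In the 3 libraries of 100 T cells this gene took 3.77%, 1.45% and 4.44% of the family's counts. Ighv1-9 took 16.7%, 7.54% and 6.01% of the heavy chain family's counts there, and was the leading gene in the first library. These shares rest on 27 of 162, 15 of 199 and 179 of 2980 counts.

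The effective number of variable genes, the inverse Simpson index of their counts, was 1.61 ± 0.0980 for heavy chains in 500 T cells and 41.6 ± 0.925 in 0.5 ng RNA (SD, n = 3 each). For kappa chains it was 1.77 ± 0.0214 and 32.6 ± 1.37. The exact permutation test gave p = 0.1 for each, the smallest possible. In 10000 T cells the numbers were 41.6 ± 5.87 and 44.2 ± 3.95, on low family totals of 58.6 ± 10.4 and 64.9 ± 5.05 CPM. Without the leading gene, the heavy chain family summed to 72.5 ± 9.40 CPM in 500 T cells, 58.0 ± 9.37 CPM in 10000 T cells and 1371 ± 32.6 CPM in 0.5 ng RNA. The kappa family without its leading gene summed to 94.7 ± 2.64, 63.7 ± 5.19 and 2699.9 ± 58.4 CPM.

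**Figure D3:**
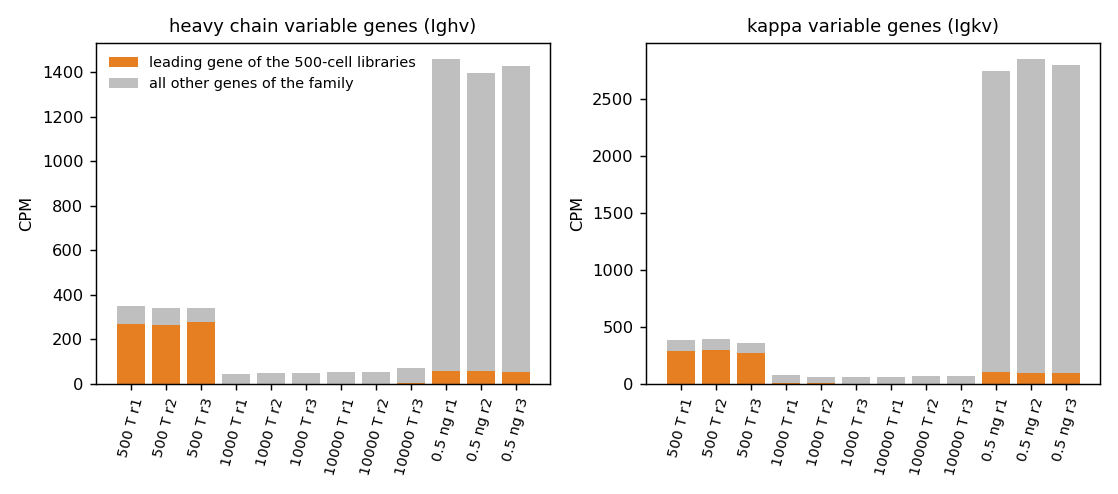
CPM of the heavy chain (left) and kappa (right) variable genes in each library of 500, 1000 and 10000 T cells and of 0.5 ng RNA, as stacked bars with the leading gene of the 500-cell libraries in orange and all other genes of the family in grey. In each 500-cell library the orange part is between 74.4% and 81.7% of the bar, and in each RNA library no more than 4.12%.

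T cell receptor variable genes served as the matching measure for T cells. Their effective number was 27.4 ± 3.32 in 500 T cells and 25.8 ± 1.95 in RNA for the 108 alpha genes (exact permutation p = 0.4), and 12.7 ± 1.17 and 14.4 ± 1.23 for the 22 beta genes (exact permutation p = 0.2). The leading gene averaged 7.92 ± 2.64% of alpha and 14.5 ± 1.35% of beta counts in T cells. The alpha family summed to 124 ± 8.18 CPM in T cells against 47.7 ± 5.76 CPM in RNA. The beta family summed to 239 ± 5.16 CPM and 184.7 ± 25.7 CPM, and 2 of its 17 genes tested were called higher and 1 lower, against 19.0% and 18.1% of all genes. At 10000 cells and 5 ng 16 beta genes were called higher, and at 1000 cells and 1 ng 15. The interaction called 6 of 17 lower at 500 cells against 10000 (median difference -2.01) and 7 of 17 against 1000 (median -2.14), and 0 higher in each. Over all genes, 0.781% and 0.663% were called lower in these interactions. In RNA of 1 and 5 ng the beta family summed to 64.0 ± 3.08 and 62.4 ± 3.19 CPM.

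Jchain, Igkc and Mzb1 were lower in 500 T cells than in RNA but above the levels of 10000 T cells. Jchain lay at 358, 313 and 288 CPM in T cells against 1749.7, 1797 and 1768 CPM in the RNA libraries (log2 fold change -2.48, SE 0.0765, adjusted p = 3.14e-17), against 5.35 ± 1.19 CPM at 10000 cells. Igkc, the kappa constant region, lay at 1205, 1233 and 1185 CPM against 8990, 9063 and 8589.8 CPM (-2.89, SE 0.0406), and at 106 ± 12.4 CPM at 10000 cells. Both genes' groups were separate, with T cells low. The interaction with 10000 cells was 5.75 (SE 0.129) for Jchain, 3.92 (SE 0.0667) for Igkc and 2.93 (SE 0.408) for Mzb1, a chaperone of antibody assembly that lay at 10.7, 29.1 and 8.999 CPM in 500 T cells and at 2.46 ± 0.703 CPM in 10000. The ratio of Igha to Jchain was 7.59 ± 0.609 in CPM in 500 T cells and 0.597 ± 0.0493 in 0.5 ng RNA, and that of Igkc to Igha was 0.502 ± 0.0124 and 8.42 ± 0.464.

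Genes of plasma cell identity and of antibody secretion were lower in T cells. All 7 identity genes tested were called lower, with a median of -1.56, and 8 of 10 genes of assembly and secretion, with a median of -1.35. Over all genes tested, 18.1% were called lower. Xbp1, the transcription factor of secretory cells, lay at 87.2 ± 10.1 CPM in 500 T cells, 255 ± 23.6 CPM in RNA and 61.6 ± 5.59 CPM in 10000 T cells. Prdm1, the factor Blimp-1 that drives plasma cell differentiation and that T cells can also express, lay at 5.59 ± 4.4, 24.9 ± 7.81 and 11.3 ± 4.23 CPM. Sdc1, the plasma cell surface marker CD138, lay at 9.79 ± 2.63, 21.9 ± 2.16 and 4.14 ± 0.255 CPM. Tnfrsf17, the plasma cell receptor BCMA, had 2 counts in all 500-cell libraries together and was not tested. The interaction with 10000 cells called Sdc1 (1.70, SE 0.456) and Irf4 (0.90, SE 0.216) of the identity genes higher, and Jchain, Mzb1 and Txndc5, a disulfide isomerase (0.90, SE 0.118), of the secretion genes.

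Of the genes of IgA class switch and mucosal homing, 2 of 6 tested (33.3%) were called higher and 3 (50.0%) lower, against 19.0% and 18.1% of all genes. The list took 0.126 ± 0.00187% of counts in 500 T cells, above the 0.100 ± 0.00225% in RNA without overlap (exact permutation p = 0.1). In 10000 and 1000 T cells, where Igha was low, it took 0.141 ± 0.00167% and 0.135 ± 0.00225%. The higher ones were Ccr9 and Itgb7, a chemokine receptor and an integrin chain of gut homing that T cells also carry, with 117 ± 32.3 CPM against 33.7 ± 12.997 CPM and 795 ± 6.24 CPM against 345 ± 52.6 CPM (1.79, SE 0.259, and 1.19, SE 0.0929). Both had changes of a like size between 10000 T cells and 5 ng RNA (1.97 and 1.34), and the interactions did not pass (adjusted p = 0.788 and 0.382). Tnfrsf13b, a receptor for plasma cell survival factors, and Itga4, an integrin chain, were among the lower ones (-1.80, SE 0.164, and -0.53, SE 0.0975). Pigr, which carries IgA across epithelia, lay at 13.4, 1.55 and 11.7 CPM in T cells against 1.96, 1.65 and 2.16 CPM in RNA and was too low to be tested. Gut epithelium genes took 0.00415 ± 0.000617% of counts in 500 T cells and 0.00489 ± 0.000778% in RNA, with groups that overlapped (exact permutation p = 0.3).

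B cell identity genes were called lower in T cells in 16 of 16 cases, with a median log2 fold change of -3.64, against 18.1% of all genes tested. Ms4a1, the B cell surface protein CD20, lay at 71.5, 99.4 and 109 CPM in T cells against 1507, 1604 and 1534 CPM in the RNA libraries (log2 fold change -4.06, SE 0.109, adjusted p = 2.29e-18), with no overlap. The list took 0.0722 ± 0.00453% of counts in 500 T cells, 0.0530 ± 0.00111% in 10000 T cells and 0.947 ± 0.0104% in 0.5 ng RNA, and the interaction with 10000 cells called 9 of its 16 genes less reduced at 500 cells. MHC class II genes were lower in 10 of 10 cases, with a median of -3.49, and Cd74, the invariant chain, lay at 389 ± 17.8 CPM against 6621 ± 163 CPM. The part of these B cell levels in the IgA signal was not tested.

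Genes of macrophages, neutrophils and red cells showed wide gaps. Lyz2, lysozyme of macrophages and neutrophils, lay at 5.36, 8.54 and 8.55 CPM in T cells against 1285, 1201 and 1336 CPM in the RNA libraries (log2 fold change -7.41, SE 0.129, adjusted p = 7.58e-22). All 14 macrophage and monocyte genes, all 11 of red pulp macrophages and 14 of 15 of neutrophils were called lower, with medians of -4.14, -5.31 and -5.19. Over all genes tested, 18.1% were called lower. C1qa, a complement subunit made by macrophages, had 0 counts in the 500-cell libraries, which put it at least 226-fold lower, taking 3 counts in the whole group as the floor (counting error only). Hbb-bs, a beta globin, lay at 62.5, 55.5 and 63.9 CPM in T cells against 1334, 1282 and 1239.8 CPM in RNA, and 14 of 15 erythroid genes were called lower, with a median of -4.08. Aqp1, a water channel of red cells and vessels, likewise had 0 counts there and stood at least 207-fold lower. The neutrophil genes together took 0.00439 ± 0.000883% of T cell counts and 0.466 ± 0.0164% of RNA counts, and 0.00665 ± 0.000832% of those in 10000 T cells. Erythroid genes took 0.0216 ± 0.000782% in 500 T cells, 0.390 ± 0.0127% in RNA and 0.00923 ± 0.000576% in 10000 T cells. Beside the macrophage genes, then, the RNA labelled with the name of a macrophage line held genes of B cells, neutrophils and red cells.

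**Figure D4:**
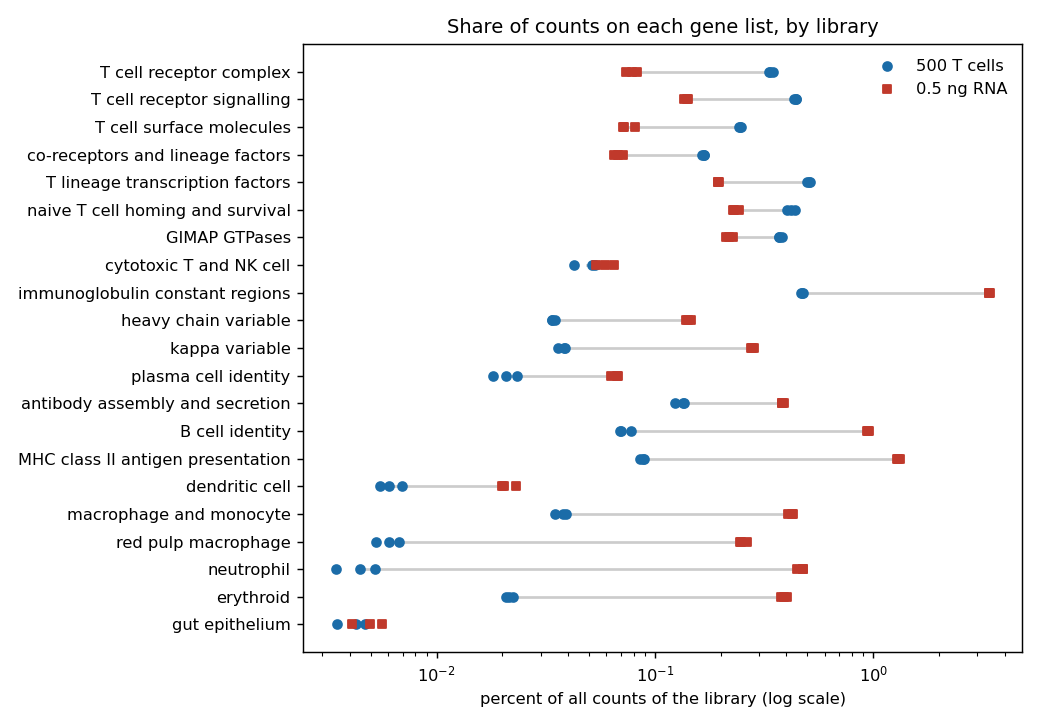
Percent of all counts on each of 21 gene lists, on a log axis, in the 3 libraries of 500 T cells (circles) and of 0.5 ng RNA (squares), with a grey line between the group means. The first 7 lists, all of T cell genes, lie to the right in T cells, and the lists of immunoglobulin genes, plasma cell identity, antibody assembly, B cells, MHC class II, macrophages, neutrophils and erythroid cells lie to the left, by up to 106-fold for neutrophil genes.

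Genes of the Y chromosome were all but missing from the T cells. Ddx3y, an RNA helicase encoded on the Y, lay at 0, 0.777 and 2.7 CPM in T cells against 224, 177 and 204 CPM in RNA. Eif2s3y, Kdm5d and Uty, also on the Y, had 0 counts in all 3 T cell libraries and were at least 202-, 189.9- and 118-fold lower. The 1000-cell and 10000-cell libraries held 0 to 9 counts of the 4 genes together, and the 500-cell libraries 0 to 6, against 1540 to 1864 in the 0.5 ng libraries. The libraries of 100 T cells held 0, 8 and 692. Sex is not given for either material.

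Programmes that many cells share differed as well. Of 16 cell cycle genes, 15 (93.8%) were called lower in T cells, with a median of -1.84, against 18.1% of all genes tested. Mki67, a proliferation marker, lay at 107 ± 10.4 CPM against 599 ± 21.1 CPM (-2.49, SE 0.103). Of 16 immediate early genes, which respond within minutes to stimulation, 11 (68.8%) were called higher and 4 (25.0%) lower, against 19.0% and 18.1% of all genes. Jun, a subunit of the AP-1 factor, lay at 207, 199.99 and 204 CPM in T cells against 24.7, 28.1 and 29.98 CPM in RNA (2.87, SE 0.165, adjusted p = 2.73e-12), and its groups were well separated. Fos and Junb, partners of Jun, were higher by 1.67 (SE 0.132) and 1.33 (SE 0.0961), whereas Egr2, Egr3, Btg2 and Atf3 were lower, at -1.37, -1.26, -0.75 and -2.50. Of 14 interferon response genes, 4 were called higher and 1 lower, with a median of 0.42; as a share this is close to the 37.1% called over all genes.

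Ribosomal protein genes were called higher in 56 of 77 cases (72.7%) and lower in 0, by a median of 0.40, against 19.0% and 18.1% of all genes. They took 5.08 ± 0.0652% of T cell counts against 3.799 ± 0.0301% of RNA counts. Between 10000 T cells and 5 ng RNA their median was -0.044, with 14 higher and 29 lower. The interaction called 46 of 77 higher at 500 cells, against 1.17% of all genes tested. Against 1000 cells and 1 ng it called 1 of 77 higher, against 0.532% of all genes. Their share was 5.01 ± 0.106% in 10000 T cells and 4.65 ± 0.0431% in 5 ng RNA, so the shares of the RNA groups were further apart than those of the T cell groups. Transcripts encoded in mitochondria were called lower in T cells in 10 of 12 cases (83.3%), with a median of -0.63, against 18.1% of all genes. Among them, mt-Co1, a subunit of cytochrome oxidase, lay at 7274 ± 175 CPM against 10963 ± 224 CPM.

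The largest differences in CPM among called genes combined T cell and general genes. Beside Igha and Tcf7, the largest rises were in Eef1a1, Tpt1 and Rplp0, of the translation machinery and its associates, in H2-K1, a class I MHC heavy chain, and in Arhgap45, Arhgef1, Dgka and Shisa5. Dgka, the diacylglycerol kinase that restrains T cell receptor signals, lay at 1246, 1186 and 1236 CPM in T cells against 294, 310.1 and 307 CPM in RNA, which did not overlap (log2 fold change 2.00, SE 0.0723). The largest falls were in Ighm, Igkc, Cd74, mt-Co1, Lars2, Ighg2c, H2-Aa, Ighg2b, Ms4a1 and Jchain. The largest fold falls past the same conditions were in C1qa, Aqp1, the Y-linked genes Eif2s3y, Kdm5d and Uty, and the antibody variable genes Ighv1-12, Ighv1-80, Ighv1-82, Igkv16-104 and Igkv1-99, each with 0 counts in 500 T cells. Lars2, a mitochondrial tRNA synthetase, was lower here (-0.30, SE 0.0588) and higher between 10000 T cells and 5 ng RNA (0.46, SE 0.0413).

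The largest fold rises were in genes with 0 counts in RNA, none of them a T cell gene of the lists. They were Scn1a, Foxp2, Crb1, Adarb2, Col4a6, Olfr354, Synpr, Vmn2r4, Ptprq and Grik1, among them ion channel, synapse, odorant and pheromone receptor genes. Scn1a, a neuronal sodium channel, lay at 27.2, 18.3 and 22.5 CPM in the 500-cell libraries, at least 90.9-fold higher than in RNA, and Foxp2, a transcription factor, lay at 31.7, 20.97 and 13.05 CPM, at least 87.8-fold higher. Per kilobase of exon, Scn1a stood at 2.03 CPM, against 102 CPM for Cd3e. Olfactory and vomeronasal receptor genes, which belong to the chemosensory tissues, took 0.465 ± 0.0213% of counts in 500 T cells, 0.340 ± 0.0111% in 10000 T cells and 0.0324 ± 0.00314% in 0.5 ng RNA. Of the 162 of 1462 such genes that passed the filter, 139 were called higher and 2 lower; a gene near 0 in RNA could pass only through its T cell level. The median exon length was 5910 bases among genes called higher and 4584 among genes called lower, and the log2 fold change had a Spearman correlation of 0.161 with exon length across 12988 genes, given as a description.

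Most genes called at both inputs held their sign. Of 4604 genes called here and tested between 10000 T cells and 5 ng RNA, 3997 were called there too, of which 3967 had the same sign and 30 the opposite sign. At 1000 cells and 1 ng, 3201 of 4303 were called in both, 3187 with the same sign and 14 with the opposite. Pearson's r of the log2 fold changes was 0.866 across 12628 genes and 0.840 across 11957 genes, in libraries that share no sample. Igha, Ighv1-9 and the leading kappa variable gene were among the genes of opposite sign in both comparisons, as were Lars2 and the T cell receptor beta gene Trbv14, at -3.52 here against 1.90 and 2.69 at the other inputs. The 30 also held 15 ribosomal protein genes and Fau, whose product includes a ribosomal protein, all higher here and lower between 10000 T cells and 5 ng RNA. Among genes of the 7 T cell lists that were called at both inputs, 0 were of opposite sign in either comparison. These lists hold no receptor variable gene.

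**Figure D5:**
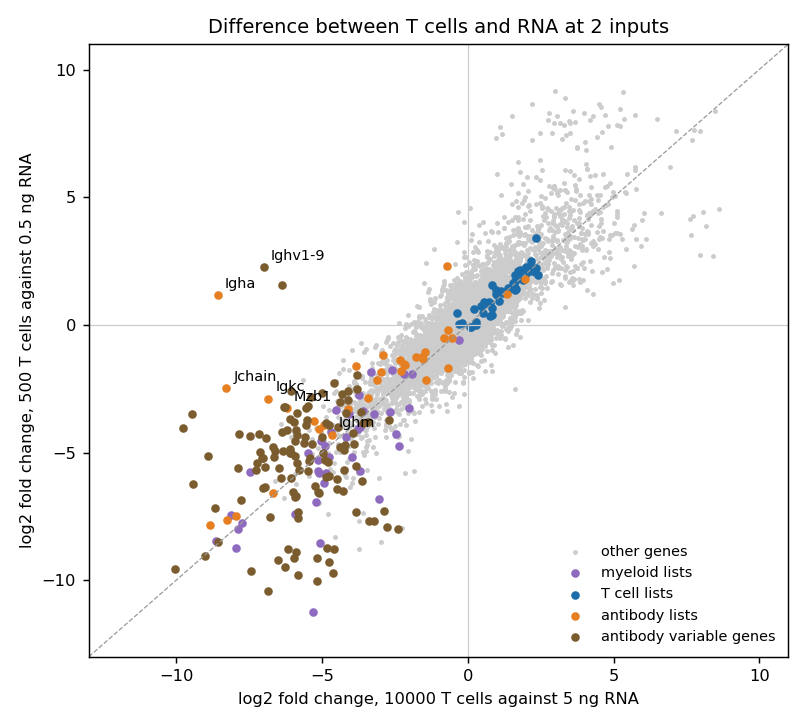
Log2 fold change of each gene between 500 T cells and 0.5 ng RNA (vertical axis) against that between 10000 T cells and 5 ng RNA (horizontal axis), with genes as points coloured by list and the dashed line marking equal changes. T cell genes lie near the dashed line, while Igha, Ighv1-9 and 1 further variable gene lie above 0 on the vertical axis and below -6 on the horizontal axis.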

How the data were processed

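The authors deposited whole-number counts per gene without normalization. Per the submitters' processing notes, HISAT2 2.1.0, featureCounts and the build mm8 were used; the version of featureCounts and its settings are not given in the sources used here. Between 61.9% and 64.4% of nonzero counts in the 6 libraries were even, so read mates may have been counted separately, and counts are not independent molecules. Intervals and floors cover counting error only.

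Groups came from the labels. The comparison of 500 T cells with 0.5 ng RNA used edgeR 4.0.16 (R 4.3.3): TMM scaling, filterByExpr for low counts, a quasi-likelihood test, and p-values adjusted by Benjamini and Hochberg's method across every gene tested, with a threshold of 0.05. Interactions with the other inputs were fitted over 12 libraries each. SE is the standard error of a log2 fold change. Shares and effective numbers were compared by two-sided exact permutation tests with 20 arrangements of the 6 libraries. Exon lengths and the printed sequences came from GENCODE M21 (GRCm38), with lengths for 99.6% of symbols. Variable genes, globins, histones, ribosomal proteins and chemosensory receptors share reads with near copies, which makes the count of any 1 of them uncertain.

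The lists, the groups compared and the tests were chosen with earlier results of these data known. Named genes were the members of lists given by name, the 4 most abundant members of families given by a pattern, the 10 largest rises and falls in log2 fold change and in mean CPM, and the 6 largest of each interaction in each direction. The first kind of rise or fall needed groups without overlap, a mean of at least 10 CPM and left out predicted genes, clones and small RNAs. Trbv genes and genes of opposite sign at other inputs were named after their values were seen.

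Alternatives were DESeq2 1.42.0, its size factors used within edgeR, library sizes alone, no filter, thinning, halved counts, all 23 libraries in 1 fit, a length trend removed, no immunoglobulin genes, the replicate block and each library left out. The fits were also tested on simulated data. Some list members are not reported here. Replicate numbers did not pair the libraries: residual correlations of same-numbered libraries were -0.000369, -0.0192 and -0.0046.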

Additional observations from a re-analysis of the deposited data

Results flagged for a closer look

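The results below were singled out because edgeR's interaction test found the difference between T cells and RNA at 500 cells to be unlike that at another input. All values are log2, positive where the T cell level relative to RNA was higher at 500 cells, with 3 libraries in each of 4 groups. No explanation was weighed.

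Against 10000 cells and 5 ng, the antibody genes Igha, Ighv1-9 and the leading kappa variable gene gave the 3 largest positive values listed here. The values of antibody genes were 9.71 for Igha, 9.21 for Ighv1-9, 7.86 for the leading kappa variable gene, 5.75 for Jchain, 3.92 for Igkc and 2.93 for Mzb1. Smaller positive values were found for Sdc1 (1.70), Iglc1 (1.48), Iglc2 (0.97), Ighg2c (0.93), Irf4 (0.90), Txndc5 (0.90), Ighd (0.76) and Ighm (0.32). Adarb2, Scn1a and Vwa3b, which had 0 counts in 0.5 ng RNA, gave 6.83, 6.57 and 7.06. Negative values came from genes at or near 0 counts in 500 T cells: C1qa (-6.38), Aqp1 (-6.22), Hcar2 (-5.96), Gpr35 (-3.92), Elane (-3.87) and C1qb (-3.58). Fitted values of genes with a group at 0 depend on the prior count.

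Against 1000 cells and 1 ng, Igha gave 9.69, Ighv1-9 8.68, Jchain 6.66, Igkc 4.00 and Mzb1 3.11. Igkv8-19, with 0 counts in 1000 T cells, gave 6.98, and Iglc1, Ighg2c, Txndc5, Ighd and Ighm gave 2.18, 1.52, 0.91, 0.80 and 0.25. Scn1a and Vwa3b gave 6.66 and 6.62. Negative values were -8.85 for Aqp1, -7.09 for C1qa, -6.29 for Hcar2 and -6.24 for Ighv1-15. The T cell receptor beta genes Trbv29 and Trbv13-1 gave -4.16 and -3.97; they lay at 7.31 ± 2.23 and 17.8 ± 2.91 CPM in 0.5 ng RNA against 0.331 ± 0.291 and 2.67 ± 0.419 CPM in 1 ng RNA.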

How the results depend on the processing

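The count of genes called between 500 T cells and 0.5 ng RNA, 4823, stayed within 1.5 times under the alternatives run, from 4329 with the replicate number as a block to 6379 with no filter, and DESeq2 gave 5572. All 23 libraries in 1 fit gave 3432 higher and 2156 lower. The block left 258 and 169 genes in the interactions with 10000 and 1000 cells and changed no count by over 1.5 times; replicate numbers did not pair the libraries. Among the genes lower in the interaction with 10000 cells, 234 were called with no filter on low counts. Leaving out each library in turn gave 160 to 462 genes in that interaction, 95 to 206 higher and 54 to 256 lower. For 1000 cells it gave 96 to 181 genes, 48 to 93 higher and 48 to 101 lower. All libraries of 5 ng RNA and 2 of 10000 T cells lowered the first count by over 1.5 times when left out (171, 171, 160, 201 and 173), and replicate 3 of 500 T cells raised it to 462. Each 500-cell library left out raised its genes called lower, to between 235 and 256, and replicate 3 of 10000 T cells left out lowered its genes called higher to 106. Replicate 2 of 0.5 ng RNA and replicates 1 and 2 of 1 ng RNA lowered the second to 110, 108 and 96, and replicate 3 of each lowered its genes called lower to 66 and 65. With the length trend removed, Ets1 was at -0.014 and mt-Nd1 at 0.066, the only changes of sign of a called gene among those named; the cause was not tested. The ratio of effective numbers, RNA over T cells, was 25.8 for heavy chains, 24.2 on thinned counts and 15.4 by the Shannon index, and for kappa chains 18.4, 17.0 and 11.1. The T cell libraries held fewer counts than the RNA libraries, so genes at a few CPM rest on a few counts each.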

Other observations

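Genes of blood vessels and connective tissue, which could enter a spleen preparation, showed no common direction. Of 10 tested, Kdr, a receptor of endothelial growth factor, Col1a2 and Col3a1, collagen chains, were called higher in 500 T cells (1.68, SE 0.623, 2.00, SE 0.625, and 4.22, SE 0.869), each at or under 14.4 CPM, and Pecam1, an adhesion molecule of endothelium and leukocytes, was called lower (-0.55, SE 0.13). As shares, 30.0% were called higher and 10.0% lower, against 19.0% and 18.1% of all genes tested. The list took 0.0247 ± 0.00317% of counts in T cells and 0.0285 ± 0.00309% in RNA, and the groups overlapped. Ccl19 had 0 counts in all 6 libraries.

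Dendritic cell genes were called lower in 5 of 7 cases tested (71.4%), against 18.1% of all genes. Itgax, an integrin of dendritic cells, lay at 12.7 ± 5.67 CPM against 74.8 ± 4.58 CPM. Siglech, a marker of plasmacytoid dendritic cells, lay at 1.9 ± 0.998 CPM against 20.01 ± 3.03 CPM. Of platelet genes, Ppbp, Itga2b and Gp1ba were called lower. Histone genes, whose main transcripts lack a poly(A) tail, passed the filter in 19 of 67 cases. Of the 19, 2 (10.5%) were called lower, against 18.1% of all genes tested.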
